A study of Mus musculus with 24 samples.

Results

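The spleens of BALB.K mice that had received 800 cGy of total body irradiation were compared with the spleens of resting BALB.K mice that had received none (0 cGy). The arrays were chosen by their titles, 3 at each dose, and make up 6 of the 24 arrays of the series. All 55681 non-control probes of the one-colour mouse array were read on each of them.

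BALB.K is an inbred mouse strain, and the series also holds BALB.K at 300 and 400 cGy and a strain called B10.BR at 0, 300, 500 and 900 cGy. Irradiated spleens were harvested 24 hours after exposure in a cabinet irradiator. The series calls 800 cGy in BALB.K and 900 cGy in B10.BR myeloablative, a term for a dose that destroys the bone marrow. Each array held Cy3-labelled RNA pooled from 3 mice and isolated from splenocytes with TRIzol followed by a column clean-up, so that the spread between arrays is the spread between pools. The sex, the age and any genotype beyond the strain are not given in the sources used here.

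The mouse spleen is a lymphoid organ and, through life, also a site of red cell formation. Ionising radiation breaks DNA, and the breaks activate the transcription factor p53, which can halt the cell cycle, switch on repair or start apoptosis. Dividing precursors and resting lymphocytes are known for their sensitivity to radiation, whereas macrophages and the stromal framework are known for their resistance. In RNA of unsorted splenocytes, fewer cells of a type and less RNA per cell cannot be told apart.

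A level below is the log2 intensity of a probe relative to the 75th percentile of its array, and levels of different probes are not compared. A change is the mean level at 800 cGy minus the mean level at 0 cGy, given ± its limma standard error (3 arrays a group); the words rose and fell are kept for genes with an adjusted p under 0.05 (limma, two-sided, Benjamini-Hochberg over all features). Of 29532 features tested, 17248 passed (58.4%), 8642 higher (29.3%) and 8606 lower (29.1%), with a median change of 0.078. On 64.3% of features the 3 arrays of one dose lay wholly above the 3 of the other dose, so that separation of the groups is the common case here and a list is read against these shares. Scaling on 10 spike-in probes in place of the 75th percentile moved the median of all features to 0.43, a shift that every gene shares.

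Arrays of a group were not alike in 3 respects. On the 0 cGy replicate 2 array, a corner of the slide was dim: in 69 of 1968 blocks of neighbouring spots the signal lay more than 2-fold under the other control arrays, with a lowest block median of -4.83 on the log2 scale, while of the other arrays only B10.BR 300 cGy replicate 1 had such a block, 1 in number. A probe whose spots all lay in that corner is therefore also given with them left out, on the 2 remaining control arrays. Genes of the exocrine pancreas, which makes digestive enzymes and lies beside the spleen, held 0.156%, 0.0251% and 0.00562% of the summed signal on the 3 control arrays and 0.239%, 0.984% and 0.518% at 800 cGy. Ddx3y, which lies on the Y chromosome, was detected on control replicate 1 and on all 3 arrays at 800 cGy but at -8.0 and -8.42 on control replicates 2 and 3, where Xist, transcribed from an inactive X chromosome, stood at 1.57 and 1.23 against -5.66 on control replicate 1. The part that these differences play in each result below was not tested except where a value is given. All control arrays lay on slide 2 and all 800 cGy arrays on slide 3, so that no value within a slide can be had. A value with slide as a block rests on the BALB.K 300 cGy arrays, replicate 1 on slide 2 and replicates 2 and 3 on slide 3. Of these only replicate 1 carried Y-linked signal, and its exocrine share was 1.26% against 0.253% and 0.0361%. A block value therefore cannot separate slide from those differences. It is given for a selection of the counts, medians and calls that it changed. A list or gene printed without a block value may have shifted too.

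**Figure D1:**
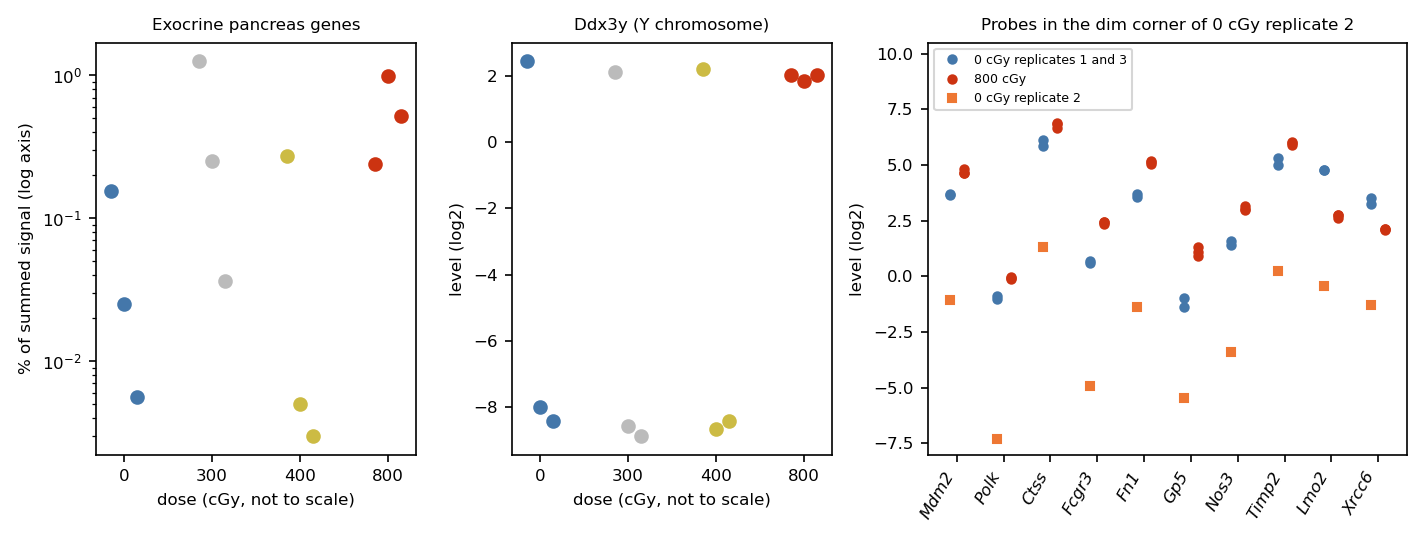
The left panel plots the share of summed signal (percent, log axis) held by exocrine pancreas genes and the middle panel the level of Ddx3y (log2), per BALB.K array by dose; the right panel plots levels (log2) of 10 genes whose probes lie in the dim corner. Control replicate 2 (squares) lies below the other control arrays for each of the 10 genes, and Ddx3y is high on 1 control array and on all 3 arrays at 800 cGy.

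The targets of p53 that act in arrest and stress were mostly higher. Cdkn1a, which encodes the cyclin-dependent kinase inhibitor p21, stood at -2.23, -2.47 and -2.51 on the control arrays and at 2.90, 2.93 and 3.00 on the irradiated ones. Its rise of 5.35 ± 0.099 (adjusted p = 2.39e-17) was the steepest of this list, and the groups lay far apart. Of 33 list members tested, 26 rose and 4 fell, with a median of 1.47 against 0.078 over all features. Gdf15, a secreted stress cytokine, rose by 3.97 ± 0.21, and Phlda3, an inhibitor of Akt signalling, by 3.21 ± 0.095. Ccng1, which encodes cyclin G1, rose by 1.60 ± 0.13, and Sesn2, a stress-induced regulator of metabolism, by 0.81 ± 0.14. Plk2, a polo-like kinase, rose by 1.83 ± 0.14. Gadd45a, a stress-response gene named for growth arrest, went the other way at -1.83 ± 0.16. Mdm2, the ubiquitin ligase that removes p53, stood at 3.67, -1.08 and 3.68 and at 4.62, 4.64 and 4.83; the low control value lies in the dim corner, and without it the rise was 1.02 ± 0.10 (2 control arrays, adjusted p = 9.70e-08) in place of 2.61 ± 0.75.

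Of 7 p53 targets of repair and nucleotide supply 4 rose and 2 fell (median 0.42). Mgmt, which removes alkyl groups from guanine, rose by 2.35 ± 0.13, whereas Ddb2, a sensor of damaged bases, fell (-1.13 ± 0.11), as did Polh, a bypass polymerase (-1.73 ± 0.10). Trp53 itself, which encodes p53, fell at the RNA level (-0.71 ± 0.11), as did its phosphatase Ppm1d (-0.86 ± 0.099), and its inhibitor Mdm4 rose by 0.96 ± 0.11. Of the 10 genes for p53 and its regulators 2 were higher and 6 lower. With spike-in scaling 2 were higher and 0 lower, and neither Trp53 (-0.36) nor Ppm1d (-0.50) passed.

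Genes that start apoptosis moved unevenly. Bbc3, which encodes the BH3-only protein PUMA, stood at 2.48, 2.38 and 2.10 at 0 cGy and at 4.53, 4.60 and 4.65 at 800 cGy, with no overlap and a rise of 2.27 ± 0.10 (adjusted p = 1.77e-12). Pmaip1 (NOXA) rose by 0.94 ± 0.13 and the pore-forming Bax by 0.94 ± 0.084. The survival gene Bcl2l1 fell (-1.44 ± 0.17), and Bcl2 itself did not pass (-0.27 ± 0.12, adjusted p = 0.0672). Bcl2 passed as lower under some alternatives, such as median scaling (-0.35) and normexp background correction (-0.31), and gave 0.084 with spike-in scaling. In all, 7 of 16 BCL2 family members rose and 2 fell. Mlkl, the executioner of necroptosis, rose by 2.49 ± 0.19, and its upstream kinase Ripk3 by 0.92 ± 0.11. Tnfrsf10b, the mouse death receptor for TRAIL, rose by 1.93 ± 0.10, and Fas by 1.03 ± 0.090; Casp2 fell (-1.09 ± 0.098). Of the 26 death receptor and caspase genes 14 rose and 4 fell with a median of 0.41, which with slide as a block became 0.15 with 9 higher.

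Every tested gene of DNA replication and of mitosis was lower, the replication list in 31 of 31 members (median -2.36) and the mitosis list in 39 of 39 of 40 listed (median -3.19), where 29.1% of all features fell. Cdc6, which loads the replicative helicase, stood at 1.36, 2.10 and 1.36 and dropped to -2.89, -2.83 and -2.89. Control replicate 2 was the highest of the controls for it, and the groups did not overlap (-4.48 ± 0.22, adjusted p = 5.26e-12). Rrm2, which supplies deoxynucleotides, fell by -3.89 ± 0.16 in signed log2 units, the helicase subunit Mcm5 by -2.67 ± 0.11 and the sliding clamp Pcna by -2.18 ± 0.099. Ccna2, which encodes cyclin A2, stood at 4.48, 5.09 and 4.61 and then at -0.07, 0.17 and -0.039. That fall of -4.71 ± 0.19 was the steepest of the mitosis list. Mki67, the proliferation marker, gave -4.05 ± 0.16, the mitotic kinase gene Cdk1 -3.19 ± 0.21, the spindle motor Kif11 -4.17 ± 0.23 and the survivin gene Birc5 -4.13 ± 0.15. Of the D and E cyclins and E2F factors 13 of 18 fell, among them Ccne1 (-4.10 ± 0.13) and E2f1 (-1.56 ± 0.13). Ccnd1 (0.93 ± 0.11) and Ccnd2 (1.07 ± 0.11), D cyclins that answer to growth signals, were higher. Of 6 CDK inhibitor genes 3 rose and 3 fell.

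Repair by homologous recombination, which is tied to S phase, fell with them: 23 of 29 genes were lower and 1 was higher, with a median of -1.61. Brca1 changed by -2.91 ± 0.22 and was well above background on 2 of 3 arrays at 800 cGy. Brca2 changed by -3.05 ± 0.14 and the helicase Blm by -3.66 ± 0.17. Genes of end joining and damage sensing moved less, with 13 of 20 lower and a median of -0.59, among them the kinases Atm (-1.14 ± 0.15), Atr (-1.12 ± 0.11) and Chek2 (-1.14 ± 0.11). Xrcc6 (Ku70), whose only usable probe lies in the dim corner, gave 0.28 ± 0.74 on all arrays and -1.28 ± 0.13 on 2 controls (adjusted p = 1.03e-07).

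To show what the 5′ flanks of these genes look like, promoters of genes with large changes are printed from RefSeq (GRCm38.p6), with 150 bases upstream of a transcription start and the searched motif in capitals. The E2F-type motif (TTTCCCGC or TTTGGCGC on either strand) was found in the 250 bases before the start in 20% of 30 promoters of replication genes and in 1.30% of all 32851 promoters. The cell cycle homology motif TTTGAA (either strand) was in 30.3% of 33 promoters of mitosis genes and in 16.0% of all promoters. A match describes the sequence and does not show that a factor binds there. The Cdc6 window is chr11:98908001-98908150 (plus strand) and the Kif11 window is chr19:37376232-37376381 (plus strand).
Cdc6: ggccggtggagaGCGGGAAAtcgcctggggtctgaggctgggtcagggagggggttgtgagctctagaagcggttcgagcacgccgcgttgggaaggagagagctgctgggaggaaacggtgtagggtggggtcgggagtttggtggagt
Kif11: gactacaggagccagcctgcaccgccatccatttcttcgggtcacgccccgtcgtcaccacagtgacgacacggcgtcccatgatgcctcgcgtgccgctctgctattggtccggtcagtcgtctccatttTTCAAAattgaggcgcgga

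Many of the steepest falls were those of genes of red cell precursors. Klf1, the master transcription factor of erythroid cells, stood at 4.92, 5.22 and 4.93 at 0 cGy and at -2.61, -2.89 and -2.99 at 800 cGy. Rhd, a Rh blood group protein of the red cell surface, went from 5.88, 6.02 and 5.70 to -1.18, -1.57 and -1.22, and Ahsp, the chaperone of free alpha globin, from 6.30, 6.70 and 6.41 to -1.98, -2.49 and -1.84. The groups were wide apart for each, with changes of -7.85 ± 0.29, -7.19 ± 0.31 and -8.57 ± 0.37 and adjusted p-values of 1.71e-13, 1.06e-12 and 1.06e-12. Of the erythroid regulators 11 of 14 were lower, including Gata1 (-2.48 ± 0.26), Tal1 (-2.64 ± 0.13) and the erythropoietin receptor gene Epor (-1.45 ± 0.15), and none was higher; their median was -2.25.

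Of 21 genes of the red cell membrane and blood groups 19 fell, with a median of -5.12. The membrane skeleton gene Add2 (beta adducin, -7.76 ± 0.41), the anion exchanger Slc4a1 (-5.12 ± 0.30) and the transferrin receptor Tfrc (-5.17 ± 0.18) belong to it. Sptb, which encodes beta spectrin, was the exception that rose (1.83 ± 0.24). Also among the 15 largest falls were Btnl10, a butyrophilin-like gene (-8.11 ± 0.35), Ermap, which carries the Scianna antigens (-7.03 ± 0.23), and Kel, the Kell protease (-6.14 ± 0.43). The same 15 held Apol8, an apolipoprotein L gene (-7.52 ± 0.33), Slc25a21, a mitochondrial carrier well above background on 1 array at 800 cGy (-7.13 ± 0.35), Nxpe2 (-7.13 ± 0.23), Tlcd4 (-6.56 ± 0.33), Sowaha (-6.41 ± 0.32), Cldn13, a claudin (-6.22 ± 0.28), and Tfr2, the second transferrin receptor (-6.32 ± 0.21). Other probes of Ermap and Sowaha were also lower at 800 cGy, the smallest changes being -0.74 and -1.05.

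Mature globin RNA followed a different course. Hba-a1, adult alpha globin, stood at 8.93, 9.07 and 8.90 before and at 8.46, 8.44 and 8.64 after 800 cGy. That separated the groups by little and did not pass in the fit to all arrays (-0.45 ± 0.23, adjusted p = 0.097). The change passed in fits to only the arrays compared (-0.45, adjusted p = 0.0131) or only the 12 BALB.K arrays (-0.45, adjusted p = 0.00822). It also passed with the authors' deposited matrix (-0.43, adjusted p = 0.010), median scaling (-0.54, adjusted p = 0.0459) and the replicate block (-0.45, adjusted p = 0.0306). Under the other alternatives run it did not pass. Among 7 tested globin genes and their chaperone 3 fell, and the median was -0.75, which became -2.72 with slide as a block; globin genes are near-identical in pairs, and their probes may not tell the copies apart. Heme synthesis fell in 12 of 13 genes (median -2.64). The mitochondrial iron importer Slc25a37 gave -3.61 ± 0.20 and Alas2, the erythroid first enzyme, -2.46 ± 0.41. Its counterpart in other tissues, Alas1, rose by 0.87 ± 0.098.

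Genes that take up and recycle heme and iron, a task of red pulp macrophages, went up in 12 of 16 members and down in 2 (median 0.97, with slide as a block 0.51). Hmox1, which opens the heme ring, rose by 1.84 ± 0.19, the lysosomal iron exporter Slc11a1 by 1.90 ± 0.11, the iron exporter Slc40a1 by 1.14 ± 0.11 and Spic, the transcription factor of red pulp macrophages, by 1.26 ± 0.13. Blvrb, a biliverdin reductase also made in red cell precursors, fell (-1.29 ± 0.14).

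The GATA motif AGATAA (either strand) was found in 27.3% of 22 promoters of membrane and blood group genes, in 17.6% of 17 promoters of erythroid regulators, in 7.69% of 13 promoters of heme synthesis genes, in none of 4 promoters of globin genes and in 9.99% of all promoters. The KLF motif CCACACCC was in 1 of the 22, in none of the others and in 3.20% of all. These windows hold the GATA motif in capitals, on the plus strand at chr11:58917758-58917907 (Btnl10), chr4:115056176-115056325 (Tal1, the distal end of the searched window) and chrX:150547267-150547416 (Alas2).
Btnl10: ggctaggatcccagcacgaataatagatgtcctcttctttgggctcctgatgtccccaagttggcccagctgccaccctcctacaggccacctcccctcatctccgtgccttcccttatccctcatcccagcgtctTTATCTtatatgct
Tal1: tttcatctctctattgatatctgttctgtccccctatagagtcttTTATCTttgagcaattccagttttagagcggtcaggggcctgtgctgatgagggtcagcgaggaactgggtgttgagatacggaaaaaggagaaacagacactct
Alas2: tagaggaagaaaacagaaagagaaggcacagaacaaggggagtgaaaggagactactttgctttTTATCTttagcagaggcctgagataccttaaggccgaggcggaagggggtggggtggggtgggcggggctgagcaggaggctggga

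B cell genes fell in 24 of 26 cases on the surface and signalling list (median -2.33) and in 11 of 15 transcription factors (median -1.11). The lists of B cell subsets were divided: of 9 marginal zone genes 4 were higher and 1 lower (median 0.18), and of 7 germinal centre genes 2 were higher and 3 lower (median -0.57). Ms4a1, which encodes CD20, stood at 5.95, 6.0 and 5.98 on the control arrays and at 2.89, 2.81 and 2.75 on the irradiated ones, with little spread at either dose (-3.16 ± 0.15, adjusted p = 3.83e-12). The receptor chain genes Cd79a and Cd79b changed by -1.92 ± 0.15 and -2.67 ± 0.10. The low-affinity IgE receptor Fcer2a (-3.79 ± 0.18), the complement receptor Cr2 (-2.95 ± 0.10), the follicle homing receptor Cxcr5 (-3.32 ± 0.16) and Tnfrsf13c, the receptor for the survival factor BAFF (-3.13 ± 0.11), marked mature B cells and were all lower. Pax5, which holds B cells to their lineage, stood at 0.38, 0.31 and -0.13 and fell to -3.55, -3.47 and -3.62. It changed by -3.73 ± 0.17 and its partner Ebf1 by -3.76 ± 0.10; Pou2af1, a B cell coactivator that plasma cells also use, moved little (-0.36 ± 0.099).

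Genes of antibody secretion were higher in 14 of 17 cases (median 0.71). Sdc1, which encodes the plasma cell marker CD138, rose by 1.39 ± 0.12, the regulator Prdm1 (Blimp-1) by 0.95 ± 0.10, Xbp1 by 0.66 ± 0.074 and the secretory chaperone Derl3 by 1.75 ± 0.12. Jchain, which links IgM and IgA, rose by 0.30 ± 0.083, though it did not pass with slide as a block (0.36) or median scaling (0.22). Ell2, an elongation factor used by plasma cells, fell (-0.97 ± 0.17), though not with spike-in scaling (-0.61).

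T cell genes fell as well, though unevenly. The receptor complex and coreceptor list was lower in 19 of 20 members (median -1.61). Cd8a stood at 1.26, 1.30 and 1.41 and then at -1.11, -1.19 and -1.35, and Cd3e at 2.52, 2.37 and 2.40 and then at 1.14, 1.26 and 1.07. Both separated fully, by -2.54 ± 0.084 and -1.27 ± 0.11. Cd8b1, the other CD8 chain, changed by -3.57 ± 0.13, Cd28 by -1.80 ± 0.14 and the receptor kinase gene Lck by -1.50 ± 0.098. Cd4, the remaining member, did not pass (0.21 ± 0.100, adjusted p = 0.0836). It passed as higher with quantile normalization (0.27), spike-in scaling (0.56), normexp background correction (0.25) and the mean of its probes (0.33). Naive T cell genes were lower in 11 of 12 cases, steepest for Dapl1 (-4.59 ± 0.13), the exit receptor S1pr1 (-2.92 ± 0.18), the transcription factor Lef1 (-2.78 ± 0.15) and the IL-7 receptor Il7r (-2.49 ± 0.26). Among regulatory T cell genes 4 rose and 4 fell out of 15. The lineage factor Foxp3 changed by -0.37 ± 0.097 and the IL-33 receptor Il1rl1 by -3.62 ± 0.16. With spike-in scaling Foxp3 gave -0.013 and did not pass.

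In the list of NK and cytotoxic genes 13 of 22 fell and 4 rose (median -0.61); with spike-in scaling 5 fell and 4 rose (median -0.25). The NK transcription factor Eomes (-2.14 ± 0.13), the receptor Klrd1 (-1.63 ± 0.092), Ncr1 (-0.81 ± 0.17) and Klrb1c (-0.91 ± 0.16) were lower, the last 2 not with spike-in scaling (-0.45 and -0.55). Gzmb, the granzyme B gene, was higher (1.06 ± 0.17), though not with slide as a block (0.39). Inhibitory and activating Ly49 receptors fell in 8 of 12 genes, such as Klra4 (-1.65 ± 0.12), while Klra2 (1.08 ± 0.13) and Klra17 (1.29 ± 0.15), members also found on myeloid cells, rose; the family's sequences are close, and probes may cross-react.

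Macrophage genes were higher with few exceptions. Of the genes of tissue macrophages and of dead-cell uptake 28 of 29 rose and none fell (median 1.54), and of the lysosome and lipid-laden macrophage list all 32 rose (median 1.39). C1qb, a chain of complement C1q that macrophages secrete, stood at 1.14, 1.55 and 1.48 in controls and at 4.05, 4.22 and 4.24 after irradiation, a rise of 2.78 ± 0.18 (adjusted p = 2.86e-10). The hemoglobin scavenger receptor Cd163 rose by 3.23 ± 0.37, Cd5l by 2.67 ± 0.18, the dead-cell receptor kinase genes Mertk and Axl by 1.96 ± 0.12 and 1.43 ± 0.10, and Adgre1, which encodes F4/80, by 1.54 ± 0.10. Csf1r, the receptor for the macrophage growth factor, rose less (0.60 ± 0.10), and Timd4, a receptor for dead cells, did not pass (0.40 ± 0.21, adjusted p = 0.118). Gpnmb, a lysosomal glycoprotein of lipid-laden macrophages, was above background on 1 of 3 control arrays; its levels were -5.70, -7.61 and -7.51 there and -2.46, -2.74 and -2.63 at 800 cGy, apart by 4.33 ± 0.34. Cd68 rose by 2.66 ± 0.20, progranulin (Grn) by 2.62 ± 0.096, Trem2 by 2.31 ± 0.18 and the protease gene Ctsd by 1.67 ± 0.11. Ctsl, with its probe in the dim corner, rose by 1.32 ± 0.16 on the 2 control arrays without it.

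Receptors by which myeloid cells sense antibody and microbes rose in part. Fcgr1, the high-affinity IgG receptor, rose by 2.56 ± 0.12, Fcgr4 by 2.27 ± 0.13 and the shared signalling chain Fcer1g by 1.86 ± 0.11. Fcgr3 rose by 3.61 ± 0.88 on all arrays and by 1.76 ± 0.15 with its dim-corner spot left out (2 controls). Cd14, the lipopolysaccharide coreceptor, rose by 2.66 ± 0.12, and Tlr7 and Tlr4 by 1.5 ± 0.17 and 1.06 ± 0.12; Tlr1 was lower (-1.44 ± 0.13). Of 11 inflammatory monocyte genes 7 rose and 1 fell (median 0.75, or 0.67 with the dim corner left out). For 5 of the 11 another probe of the gene went the opposite way. Of the Toll-like receptor list 11 of 15 rose. Of 19 dendritic cell genes 6 were higher and 7 lower, near the shares of all features, and with spike-in scaling 8 and 0. Xcr1 (-0.84 ± 0.13) and Clec9a (-0.47 ± 0.085), of the cross-presenting subset, fell, though not with spike-in scaling (-0.48 and -0.12), and Fscn1, a gene of mature dendritic cells, rose (1.70 ± 0.17).

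Neutrophils, short-lived granulocytes, store their defence proteins in granules. Of 27 tested neutrophil granule and stefin genes 11 rose and 1 fell, and with slide as a block 6 rose and the median went from 0.43 to 0.11. S100a8, an abundant neutrophil protein, gave 0.041 ± 0.25 (adjusted p = 0.899). The decoy IL-1 receptor Il1r2 rose by 2.56 ± 0.14, the stefin gene Stfa1 by 2.32 ± 0.28 and the protease gene Mmp9 by 1.64 ± 0.15; the direction of S100a8 turned in 5 of the alternatives.

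All 21 megakaryocyte and platelet genes rose (median 1.46, with slide as a block 1.86). Pf4, platelet factor 4, stood at 5.47, 5.24 and 5.18 and then at 6.09, 6.37 and 6.04 (0.87 ± 0.17, adjusted p = 1.91e-04). The fibrinogen receptor chain Itga2b rose by 2.73 ± 0.43, the platelet tubulin Tubb1 by 2.26 ± 0.22 and P-selectin (Selp) by 1.62 ± 0.15. Gp5 and Gp6, platelet collagen and adhesion receptors with probes in the dim corner, rose by 2.29 ± 0.31 and 1.87 ± 0.26 on 2 controls, against 3.72 and 3.46 on 3. Stem and progenitor genes rose in 11 of 13 cases. Among them were Ly6a, which encodes Sca-1 and is also induced by interferon (3.29 ± 0.22), Hlf (1.47 ± 0.40), Cd34 (1.27 ± 0.14) and Meis1 (1.25 ± 0.10). Kit (-0.57 ± 0.091) and Myb (-2.93 ± 0.15) fell, though Kit did not pass with spike-in scaling (-0.22). Mast cell genes went separate ways. The tryptase gene Tpsab1 was well above background on 1 control array and rose by 4.30 ± 0.68, and Mcpt8, a protease of basophils, fell (-2.66 ± 0.39) and was well above background on 2 arrays at 800 cGy.

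**Figure D2:**
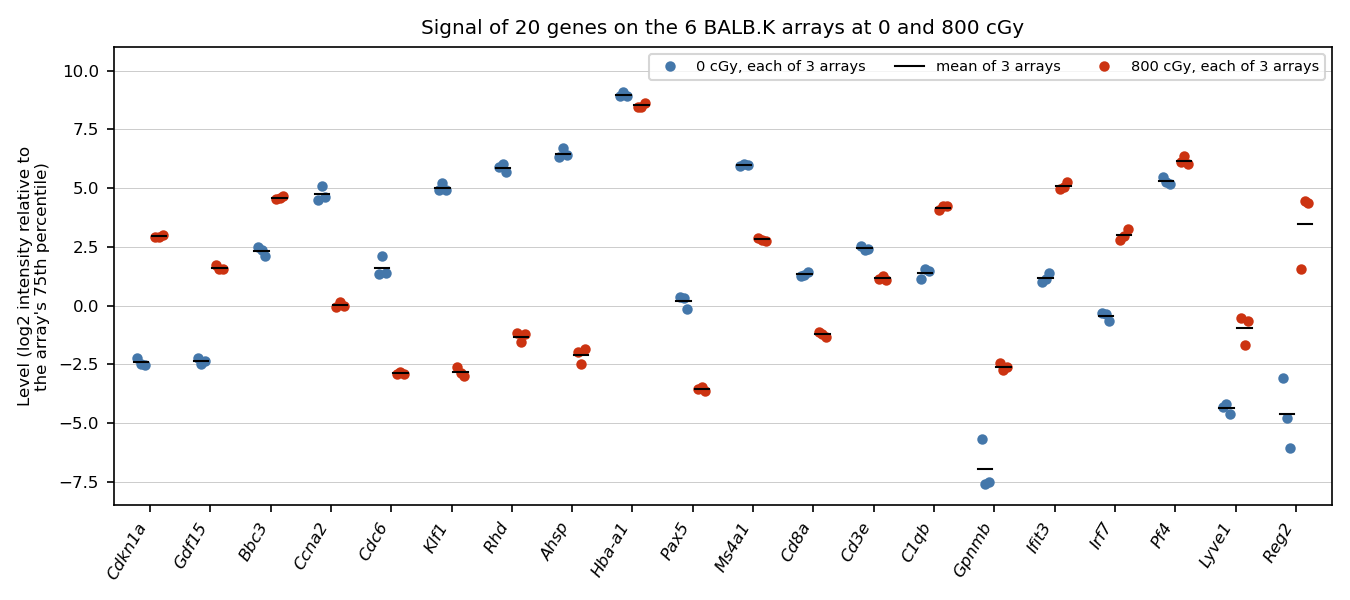
Levels (log2 intensity relative to the array's 75th percentile, vertical axis) of 20 genes on the 3 arrays at 0 cGy and the 3 at 800 cGy, each point an array and each bar the mean of 3. The groups do not overlap for any of the 20; the means are -2.41 and 2.95 for Cdkn1a, 5.02 and -2.83 for Klf1, and 8.97 and 8.51 for Hba-a1.

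Interferon-induced effector genes were among the lists with the steepest rises: 26 of 29 rose and 2 fell, with a median of 2.22 that became 1.63 with slide as a block. Ifit3, which binds foreign RNA complexes, stood at 0.99, 1.15 and 1.40 before and at 4.97, 5.06 and 5.26 after irradiation, a gap much wider than the spread at either dose (3.92 ± 0.19, adjusted p = 3.99e-12). The RNA-sensing synthetase Oas2 rose by 3.84 ± 0.21, Oasl2 by 3.27 ± 0.13, the dynamin-like GTPase Mx1 by 3.36 ± 0.23 and the ubiquitin-like Isg15 by 1.30 ± 0.18. Oas1g was above background on no control array and rose at least 4.12-fold (adjusted p = 1.00e-07). Rsad2 (viperin, -0.90 ± 0.21) and Isg20 (-1.67 ± 0.17), both also antiviral, fell, though Rsad2 did not pass with spike-in scaling (-0.54).

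Of the regulators and sensors 15 of 23 rose and 6 fell (median 0.55), and with slide as a block 11 and 5 did (median 0.35). Irf7, the factor that amplifies type I interferon, stood at -0.30, -0.37 and -0.65 and then at 2.78, 2.98 and 3.24. It rose by 3.44 ± 0.24 (adjusted p = 4.97e-10), the signal transducer Stat2 by 1.55 ± 0.095 and the RNA sensor Ifih1 (MDA5) by 1.67 ± 0.14. The interferon receptor adapter kinase Jak1 (-0.57 ± 0.13) and Sting1, the sensor of cyclic dinucleotides (-0.48 ± 0.100), fell. Ifng, the type II interferon, did not pass (-0.30 ± 0.13, adjusted p = 0.0552). Ifng passed as lower under some alternatives, such as quantile normalization (-0.32) and median scaling (-0.38), and gave 0.054 with spike-in scaling. With spike-in scaling neither Jak1 (-0.21) nor Sting1 (-0.12) passed, and 15 of the regulators and sensors were higher and 0 lower. Ifnb1, the interferon beta gene, was above background on no control array and on 1 irradiated array, so that no fold is given. All 13 guanylate binding and immunity-related GTPases rose (median 1.04, with the block 0.68), such as Gbp6 (2.23 ± 0.26), Iigp1 (1.39 ± 0.15) and Gbp2 (1.13 ± 0.13). In the Schlafen and p200 families 8 of 12 rose, led by Slfn4, a myeloid gene (4.20 ± 0.21), and Ifi202b (2.75 ± 0.35), and 5 did so with slide as a block.

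A pair of spaced GAAA repeats as in interferon-stimulated response elements (GAAA, any 2 bases, GAAA, on either strand) was in 33.3% of 27 promoters of effectors, 13.6% of 22 of regulators, 88.9% of 9 of GTPases and 50% of 14 of Schlafen and p200 genes, where 2.98% of all promoters held it. In the Schlafen and p200 lists 2 of 8 promoters of members that rose and 4 of 5 of members that did not pass held the motif. The windows shown are chr19:34583379-34583528 (Ifit3), chr10:128270248-128270397 (Stat2, the distal end of the searched window) and chr3:142559894-142560043 (Gbp3), all on the plus strand; Gbp3 rose by 1.24 ± 0.11.
Ifit3: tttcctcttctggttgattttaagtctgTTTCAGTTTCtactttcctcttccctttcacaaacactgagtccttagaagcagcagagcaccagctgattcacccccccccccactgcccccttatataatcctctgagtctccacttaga
Stat2: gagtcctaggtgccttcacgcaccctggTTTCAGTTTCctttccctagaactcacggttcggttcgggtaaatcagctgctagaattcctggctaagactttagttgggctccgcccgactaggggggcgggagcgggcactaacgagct
Gbp3: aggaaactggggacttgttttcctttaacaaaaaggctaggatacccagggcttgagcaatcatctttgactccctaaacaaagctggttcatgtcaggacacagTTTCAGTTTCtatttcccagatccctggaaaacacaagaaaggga

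Antigen presentation split by class. Of 10 MHC class II genes 9 fell and none rose (median -0.88), the steepest being H2-DMb2, a peptide-exchange chain (-2.94 ± 0.19). The master regulator Ciita changed by -1.85 ± 0.35 (-1.08 with slide as a block, which did not pass), the chain gene H2-Ab1 by -1.10 ± 0.095 and the invariant chain Cd74 by -0.79 ± 0.11. With spike-in scaling 5 of the class II genes fell, and Cd74 (-0.44) did not pass. Of 15 class I and peptide loading genes 12 rose and none fell, but by less (median 0.38), with H2-D1 at 1.51 ± 0.16 and the peptide transporter Tap1 at 1.47 ± 0.17; with slide as a block 4 of them were higher.

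Of 18 inflammatory chemokines 12 were higher and 2 lower (median 1.18). The monocyte attractant Ccl7, above background on no control array, rose at least 12-fold (adjusted p = 7.49e-09); Ccl8 rose by 3.07 ± 0.26, Ccl2 by 1.73 ± 0.17, and Ccl12, whose probe lies in the dim corner, by 3.54 ± 0.33 on 2 controls. The T cell attractant Cxcl10 rose by 2.06 ± 0.17, and Ccl3 fell (-0.49 ± 0.14), though not with spike-in scaling (-0.13). Of 19 cytokines 12 rose, among them Il33 (2.0 ± 0.098), the B cell survival factor Tnfsf13b (1.96 ± 0.12), Il1b (1.42 ± 0.25) and the IL-1 antagonist Il1rn (1.5 ± 0.18), and 5 fell, among them Ltb, a lymphotoxin chain (-1.10 ± 0.12). Growth factors of blood cell formation rose in 8 of 13 tested of 15 listed, including Il15 (1.72 ± 0.15), Csf1 (1.25 ± 0.12), Il7 (1.27 ± 0.11) and Igf1 (1.65 ± 0.11). Acute phase genes rose in 10 of 12 (median 1.66). Serpina3n, a protease inhibitor, rose by 4.05 ± 0.34, and Saa3, serum amyloid A3, was above background on 1 control array and rose by 4.73 ± 0.77 with its dim-corner spot left out. Ptx3, a soluble pattern receptor above background on no control array, rose at least 3.3-fold (adjusted p = 5.04e-05).

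Stromal niche genes were higher in 20 of 21 cases (median 1.26), endothelial and sinusoidal genes in 21 of 22 (median 1.41) and collagens and matrix genes in 20 of 22 (median 1.54). Cxcl12, the chemokine that retains stem cells, rose by 1.89 ± 0.11, and Tlx1 and Nkx2-5, homeobox genes of the spleen's own mesenchyme, by 1.37 ± 0.13 and 1.15 ± 0.15. Lyve1, a hyaluronan receptor of sinus lining and lymphatic cells, stood at -4.31, -4.18 and -4.63 at 0 cGy and at -0.53, -1.68 and -0.67 at 800 cGy, where replicate 2 was the lowest; the groups did not overlap (3.42 ± 0.35, adjusted p = 1.30e-07). The vessel genes Cdh5 (VE-cadherin), Kdr and Vwf rose by 1.09 ± 0.12, 1.16 ± 0.14 and 1.73 ± 0.19. The fibrillar collagens Col1a1 and Col3a1 rose by 1.65 ± 0.14 and 1.87 ± 0.13 and the proteoglycan Bgn by 2.70 ± 0.33. Matn1, a cartilage matrix protein, gave the third largest rise of the comparison (6.12 ± 0.17, or 5.92 ± 0.16 without the dim corner) from 2 control arrays above background, and Fn1 rose by 1.47 ± 0.092 without that corner. Of matrix metalloproteinases and their inhibitors 16 of 18 rose, with Mmp2 at 3.92 ± 0.20, Mmp13 at 3.12 ± 0.20 and the inhibitor Timp1 at 2.01 ± 0.12.

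**Figure D3:**
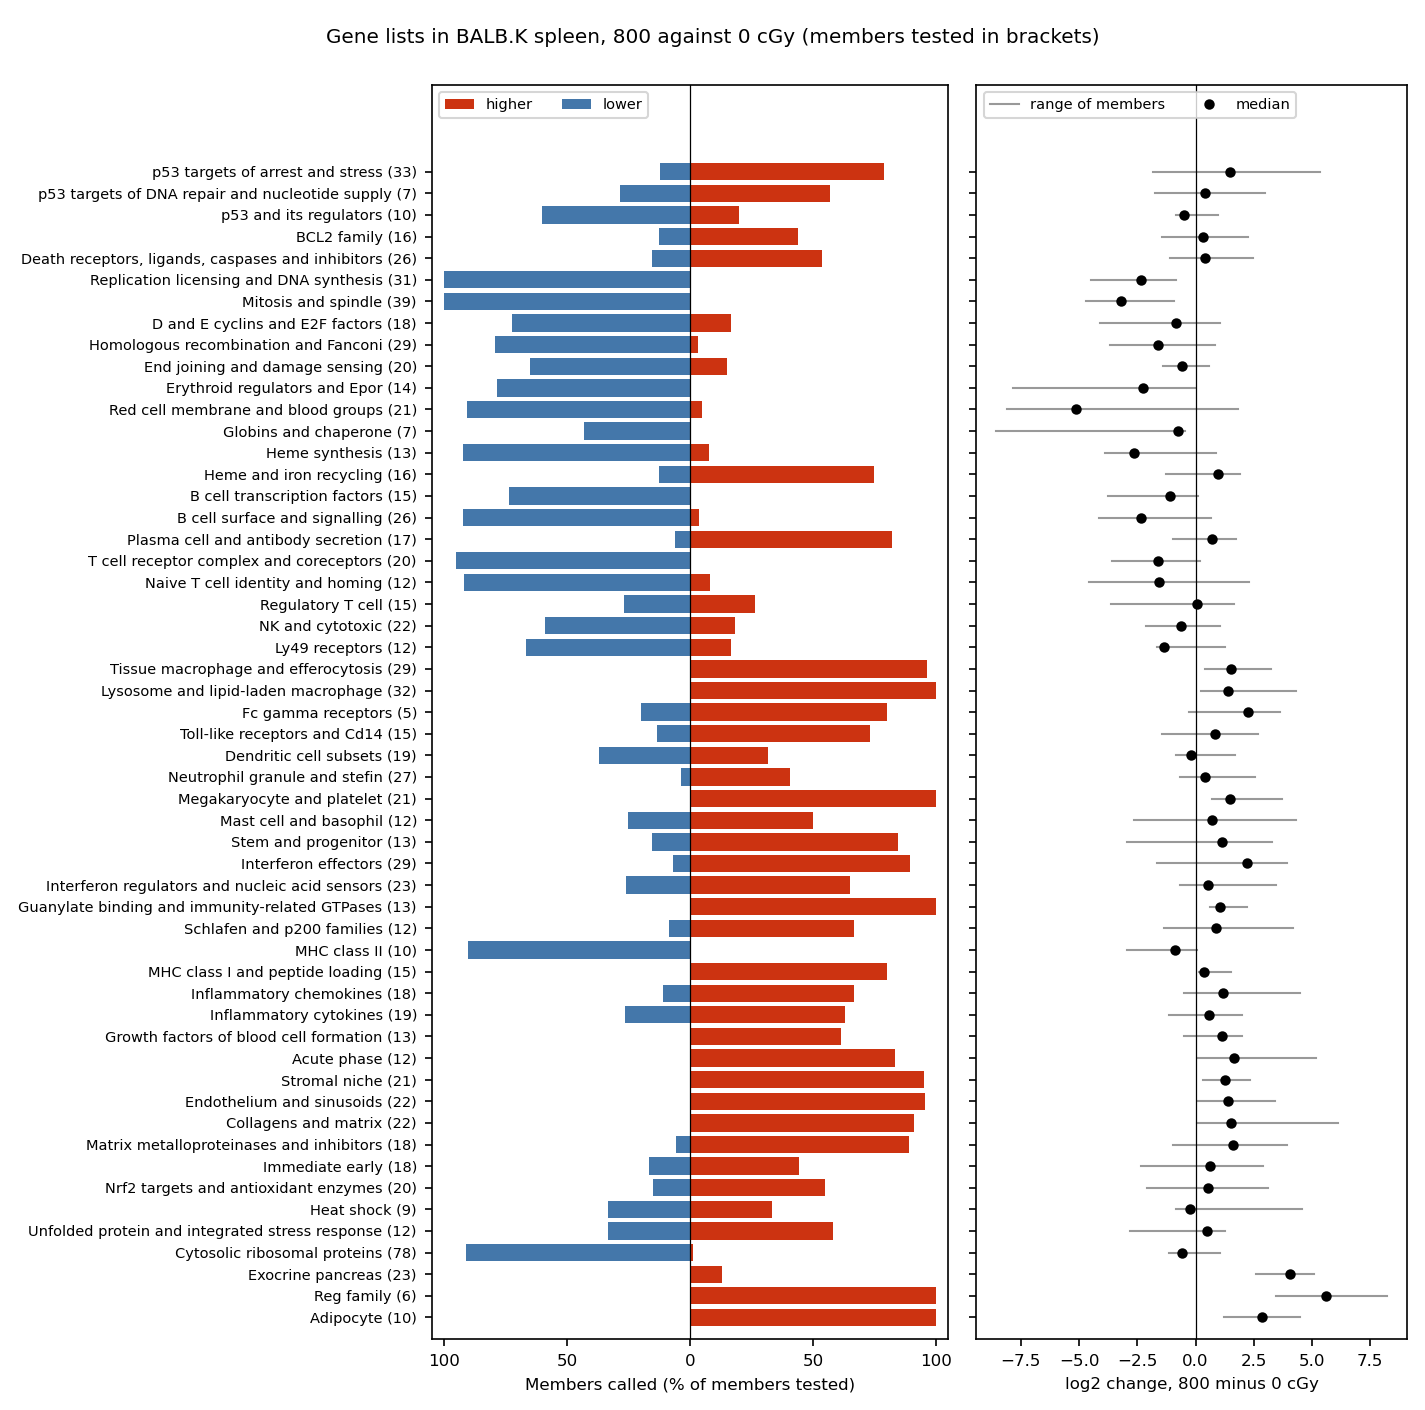
Left, the percentage of tested members of each of 54 gene lists that were higher (right of 0) or lower (left of 0) at 800 than at 0 cGy; right, the median log2 change of each list (point) and the range of its members (line). Replication and mitosis lie wholly to the left, and the megakaryocyte and lysosome lists wholly to the right; over all features 29.3% were higher and 29.1% lower.

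Stress programmes were mixed. Fos, an immediate early transcription factor, stood at -2.50, -3.14 and -3.14 at 0 cGy and at 0.087, 0.12 and -0.28 at 800 cGy, a rise of 2.90 ± 0.69 (adjusted p = 0.00137). Atf3 rose by 1.61 ± 0.28, Myc fell (-2.33 ± 0.14), and 8 of 18 immediate early genes rose. The list's median was 0.62, on arrays with Y-linked signal alone 0.28 and with slide as a block 1.07. Hspa1a, the inducible HSP70, rose by 4.56 ± 0.79, from -0.81, -3.86 and -3.86 to 2.11, 1.73 and 1.30; control replicate 1, the array with Y-linked signal, was the highest of the controls, and on arrays with Y-linked signal alone, a fit with 1 control array that takes its spread from the other groups, neither Hspa1a (2.53) nor Fos (2.47) passed. The small heat shock protein Hspb1 rose by 2.34 ± 0.26, whereas the mitochondrial chaperone Hspd1 fell (-0.83 ± 0.11), though not with spike-in scaling (-0.48). The 9 heat shock genes had 3 higher, 3 lower and a median of -0.24, which turned positive under quantile (0.17) and spike-in scaling (0.11). Of 20 targets of the oxidative stress factor Nrf2 and antioxidant enzymes 11 rose (median 0.53; 6 with slide as a block), among them the extracellular peroxidase Gpx3 (3.12 ± 0.23). The 3 that fell were Nqo1 (-2.10 ± 0.11), Gclc, the first enzyme of glutathione synthesis (-1.88 ± 0.11), and Gpx1 (-1.37 ± 0.11). Of 12 genes of the unfolded protein and integrated stress response 7 rose and 4 fell (median 0.47), and with slide as a block 3 and 4 did. Asns, the asparagine synthetase and a target of Atf4, fell (-2.81 ± 0.21), as did Atf4 (-0.63 ± 0.10), and the C/EBP-homologous factor Ddit3 rose (0.56 ± 0.11). Ddit3 did not pass with slide as a block (0.43), nor Atf4 with spike-in scaling (-0.27). Cytosolic ribosomal protein genes were lower in 71 of 78 cases by a small amount (median -0.57). Quantile normalization left 39 lower with a median of -0.19, spike-in scaling 11 with -0.21 and slide as a block 54 with -0.61. Rps27l, a p53 target, was the member that rose (0.53 ± 0.11), though with slide as a block it did not pass (0.36) and 0 members were higher. Of 82 respiratory chain genes 6 rose and 43 fell (median -0.25), of 18 glycolysis genes 9 and 2 (median 0.20), and of 18 genes of cholesterol synthesis and uptake 4 and 7 (median -0.11).

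Reg genes, which encode secreted lectins that injured or inflamed pancreas and gut make, were among the 15 largest rises, as were genes of exocrine pancreas and fat. Reg2 stood at -3.06, -4.77 and -6.07 on the control arrays and at 1.55, 4.47 and 4.35 on the irradiated ones, apart by 8.09 ± 1.82 (adjusted p = 8.26e-04). Irradiated replicate 1, which held the smallest exocrine share of its group, was also the lowest for Reg2. Reg3b was above background on no control array and rose at least 112-fold (adjusted p = 1.67e-04), and Reg3a at least 15.9-fold. Such a bound, here and below, is computed with the lowest level still above background on the dim arrays. The Reg3a probe lies in the dim corner, which its bound includes, and on the 2 other controls its rise passed too (adjusted p = 3.05e-05). Reg1 rose by 5.23 ± 2.05, a call lost without control replicate 2 (5.37) or 3 (4.19) or irradiated replicate 2 (4.53) or 3 (5.32), with the exocrine share as a covariate (0.60) and on the arrays with Y-linked signal (3.42). All 6 tested Reg genes rose (median 5.58).

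Of 23 exocrine pancreas genes 3 passed as higher, where 29.3% of all features did, with a median over the list of 4.08. The doses did not overlap for 23, where they did not for 64.3% of all features. These genes make up the exocrine share of the signal, which itself did not overlap between the doses, so the 23 are not separate observations. With slide as a block that median was 8.50 with 18 higher, and on arrays with Y-linked signal it was 1.69. With the exocrine share of the signal as a covariate it was -0.41. That share is computed from these same genes, so the adjustment removes their change by construction and decides nothing. The trypsin inhibitor Spink1 stood at -1.15, -2.80 and -4.89 and then at -0.55, 3.03 and 2.41, where the lowest irradiated array lay just above the highest control (4.58 ± 1.87, adjusted p = 0.0433). Pnliprp2, a pancreatic lipase, rose by 5.05 ± 2.13, and the serpin Serpini2 by 4.38 ± 1.79; each was above background on 2 control arrays. The calls of all 3 were lost without control replicate 2 or 3 or irradiated replicate 2 or 3, where Spink1 gave 4.65, 3.6, 3.88 and 4.19. Adipocyte genes rose in all 10 tested cases (median 2.87), such as Cidec, a lipid droplet protein (4.47 ± 0.89), Plin1 (3.54 ± 0.71) and adiponectin (Adipoq, 2.67 ± 0.67); 5 rose on arrays with Y-linked signal and 6 with slide as a block.

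Some genes crossed the detection limit. At 0 cGy 104 features (0.352%) were above background on all 3 arrays and at 800 cGy on none, and 524 (1.77%) went the other way. Detection was also more frequent in general on the 800 cGy arrays. The lowest percentage well above background among them was 73.8% (replicate 2), and the highest among the controls was 71.5% (replicate 3). The doses lay on separate slides, and the part of this general difference in the excess of gained features was not tested. Genes lost at 800 cGy included Slc30a10, a manganese and zinc transporter (at least 20.5-fold lower), Acsl6, an acyl-CoA synthetase found in red cell precursors (20-fold), and Ifngas1, a long noncoding RNA beside the interferon gamma gene (14.9-fold). Their adjusted p-values were 2.27e-14, 4.80e-09 and 3.18e-09. The others of the 10 brightest were Tsga13 (19-fold), BC051537 (15.6-fold), 4933426B08Rik (11.6-fold), Terb1, of meiotic telomeres (11-fold), Asb17 (10.9-fold), Slc9c1 (10.4-fold) and Gm5127 (7.65-fold), each a lower bound. Genes gained at 800 cGy, besides Reg3b, Reg3a and Ccl7, included the epithelial keratin Krt8 (at least 25.3-fold higher, adjusted p = 4.22e-07), the homeobox gene Hoxb8 (10.2-fold), the mesenchymal factor Osr1 (8.39-fold), the collagens Col2a1 (7.13-fold) and Col6a5 (6.65-fold) and the secreted Ccdc3 (6.25-fold). The Col6a5 probe lies in the dim corner, which its bound includes, and with that spot left out its rise passed too (adjusted p = 1.30e-07). Hoxb8 did not pass with slide as a block (limma, adjusted p = 0.0699). Krt8 stood at -5.90, -6.81 and -6.65 on the controls, all under background, and at -0.95, -2.08 and -1.0 at 800 cGy.

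To place 800 cGy among the doses given to this strain, it was compared with 400 cGy in the same fit. Between them 5498 features differed (18.6%), 2557 higher (8.66%) and 2941 lower (9.96%) at 800 cGy, with a median change of 0.018. The count moved with single arrays: without 800 cGy replicate 2 the count was 3175, and without 400 cGy replicate 2 or 3 it was 3259 or 3466. On the arrays with Y-linked signal, which leave 1 array at 400 cGy, the count was 1917. Lymphocyte genes were lower at the higher dose. Of the B cell surface genes 20 of 26 and of the T cell receptor genes 17 of 20 were lower at 800 than at 400 cGy (9 and 4 with spike-in scaling). Ms4a1 differed by -1.71 ± 0.15 (adjusted p = 6.03e-07), Pax5 by -1.66 ± 0.17, Il7r by -1.84 ± 0.26 and Cd8a by -1.16 ± 0.084. Of the mitosis genes, by contrast, 1 was lower and 1 higher, with a median of -0.094. Cdkn1a was higher by 1.2 ± 0.099 (adjusted p = 2.75e-07), Irf7 by 1.65 ± 0.24, Itga2b by 1.76 ± 0.43, Lyve1 by 1.45 ± 0.35 and Col3a1 by 1.12 ± 0.13. Among p53 targets of arrest and stress 8 of 33 were higher and 2 lower. Heat shock genes were higher at 800 cGy in 7 of 9 cases, Hspa1a by 3.21 ± 0.79. The largest differences upward were Reg2 (7.97 ± 1.82), Reg3b (7.60 ± 1.57), Reg1 (6.10 ± 2.05) and Reg3a, above background on no array at 400 cGy (at least 22.9-fold higher, adjusted p = 1.54e-04), followed by Rbmy, a family of the Y chromosome (3.21 ± 0.96). Of the 400 cGy arrays only replicate 1 carried Y-linked signal, and the exocrine share was 0.272% there and 0.00500% and 0.00299% on the other 400 cGy arrays. With that array as the only one at 400 cGy, assumed to vary like the other groups, Reg2 (4.33), Reg3b (5.80), Reg1 (1.94), Rbmy (0.50), Hspa1a (2.89), Itga2b (0.76) and Lyve1 (1.26) no longer passed; Reg1 and Rbmy also failed without 400 cGy replicate 2 (5.31 and 2.46) or 3 (4.81 and 2.61) or any single 800 cGy array (5.40 to 6.71 and 2.98 to 3.37), and Itga2b without 400 cGy replicate 3 (1.32). The largest fitted differences downward were those of Tsga13, 4933426B08Rik and Ifngas1, which were above background on no array at 800 cGy and at least 6.49-fold, 4.49-fold and 4.38-fold lower there (adjusted p = 5.91e-07, 1.77e-05 and 2.95e-05).

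Each dose was also set against the same 0 cGy arrays, so that the changes share their controls and are given side by side only. Klf1 changed by -6.03, -7.12 and -7.85 at 300, 400 and 800 cGy, and Ccna2 by -3.96, -4.34 and -4.71. For Cdkn1a the changes were 3.92, 4.15 and 5.35. Ms4a1 gave -0.75, -1.45 and -3.16, and Cd8a -0.75, -1.38 and -2.54. As medians of lists, red cell membrane genes stood at -4.53, -4.56 and -5.12, B cell surface genes at -0.75, -1.32 and -2.33, and interferon effectors at 1.90, 1.72 and 2.22.

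**Figure D4:**
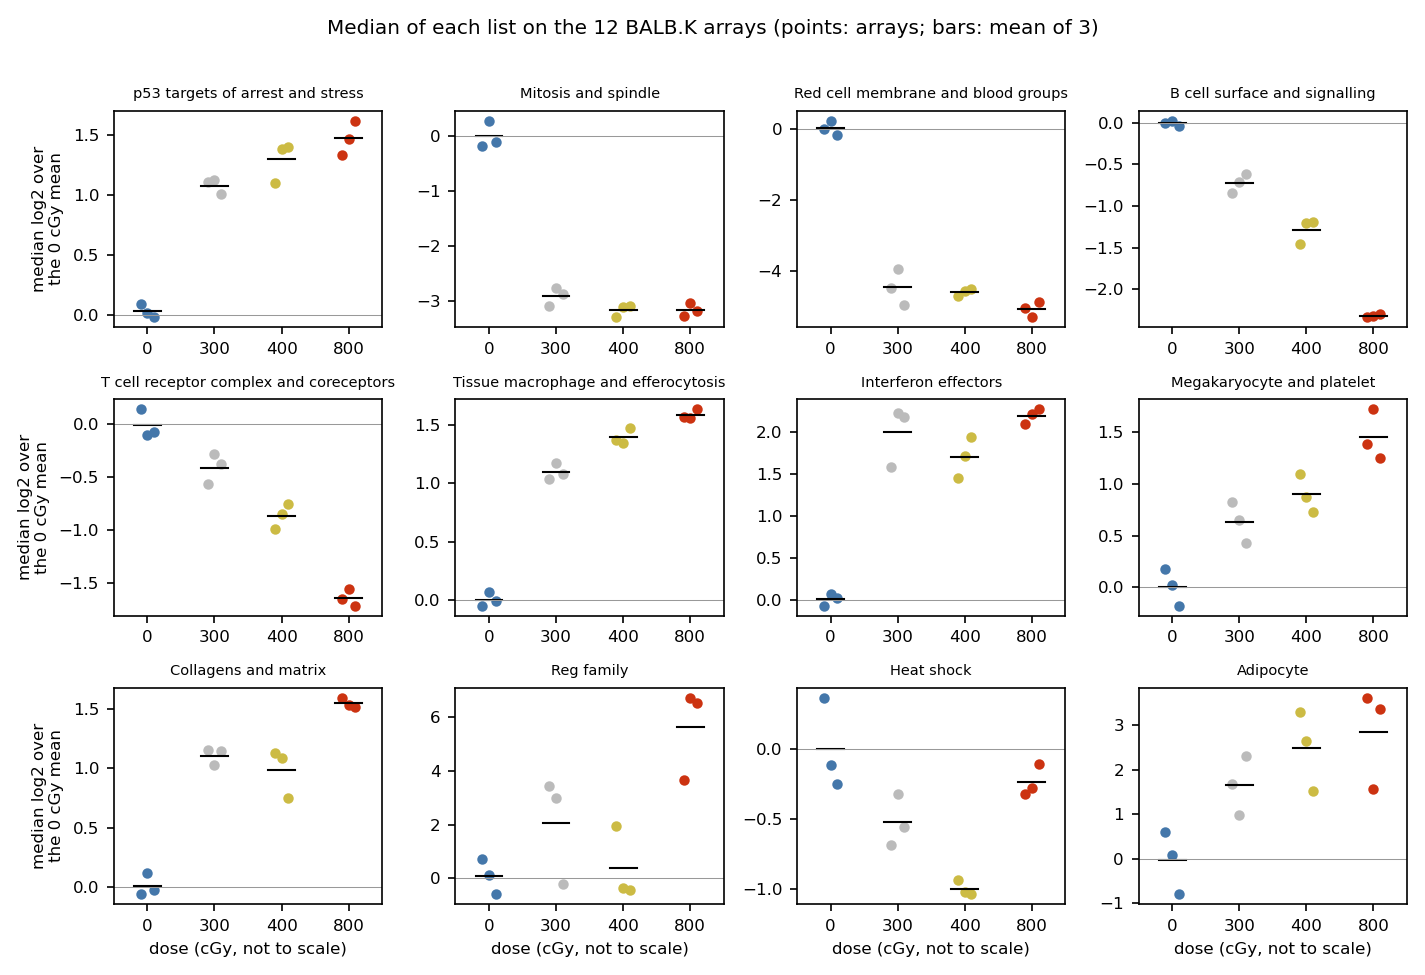
Median log2 level of the members of 12 gene lists on each of the 12 BALB.K arrays, relative to each gene's mean at 0 cGy, by dose (not to scale); points are arrays and bars the mean of 3. The mitosis list gives -2.88, -3.19 and -3.19 at 300, 400 and 800 cGy and the B cell list -0.75, -1.32 and -2.33; Reg and adipocyte medians spread widely within a dose.

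The other myeloablative group, B10.BR at 900 cGy, has controls of its own, and the difference between the changes (BALB.K minus B10.BR) was tested in the same fit. It passed for 3759 features (12.7%), 1748 with the higher change in BALB.K (5.92%) and 2011 with the lower (6.81%); with slide as a block 408 passed and with slide as a random block 1494. The doses differ, and so do the slides. Ddx3y was detected on all B10.BR arrays but, among the BALB.K controls, only on replicate 1. Strain, dose, slide and this difference in Y-linked signal therefore cannot be told apart. With only the BALB.K arrays with Y-linked signal, which leave 1 control array, the median difference over all features was 0.0995, against 0.0225. For B10.BR the slide block rests on the 500 cGy arrays, replicates 1 and 2 on slide 1 and replicate 3 on slide 2. RNA of cell division genes had the lower change in BALB.K, with 33 of 39 mitosis genes and 25 of 31 replication genes past the test in that direction and none in the other. Fewer of these genes passed with slide as a block, as given below. Ccna2 changed by -4.71 ± 0.19 in BALB.K and by -3.29 ± 0.19 in B10.BR, a difference of -1.41 ± 0.26 (adjusted p = 0.00163).

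The lists of red cell genes had negative medians in both strains, but the sign of the difference between the strains varied from list to list. Of 7 globin and chaperone genes 4 had the higher change in BALB.K and none the lower (median difference 2.35). Of 13 heme synthesis genes 1 had the higher change and 6 the lower (median -0.52), and of 21 membrane and blood group genes 5 and 8. Hba-a1 changed by -0.45 and -2.81 in BALB.K and B10.BR (difference 2.35 ± 0.32, adjusted p = 1.24e-04), Ahsp by -8.57 and -11.94 (3.37 ± 0.52, adjusted p = 3.35e-04) and Alas2 by -2.46 and -5.75 (3.29 ± 0.57, adjusted p = 9.96e-04). For Klf1, an earlier regulator, the difference did not pass, at -7.85 and -8.56 (adjusted p of the difference 0.278); Ahsp and Klf1 were well above background on 1 of 3 B10.BR arrays at 900 cGy. T cell receptor genes had a higher change in BALB.K for 7 of 20, such as Cd3e (-1.27 and -2.13), and NK genes a lower one for 8 of 22, such as Ncr1 (-0.81 and 0.58). Interferon effectors had a higher change in BALB.K for 10 of 29 and a lower one for 0, although with slide as a block none passed and the median of the differences was -0.17. Ifi202b rose in BALB.K but was above background on no B10.BR array at 0 or 900 cGy, so that no size is given for the difference. Gbp6 gave 2.23 and 0.22 (adjusted p 0.00132). With slide as a block none of the differences given here for Ccna2 (-1.70), Hba-a1 (2.10), Ahsp (1.95), Alas2 (2.82), Cd3e (1.05), Ncr1 (-1.22) and Gbp6 (1.51) passed, and 9 mitosis and 7 replication genes did. Stress genes of the immediate early list had a higher change in BALB.K for 7 of 18. Of the 30 largest changes in BALB.K 10 differed between the strains, 3 of the rises and 7 of the falls, where 12.7% of all features did. The 30 were chosen by the BALB.K change, which is itself a term of the difference, so the count cannot be read against that share. Of the rises, Matn1 did not pass with the dim corner left out (limma, adjusted p = 0.113).

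**Figure D5:**
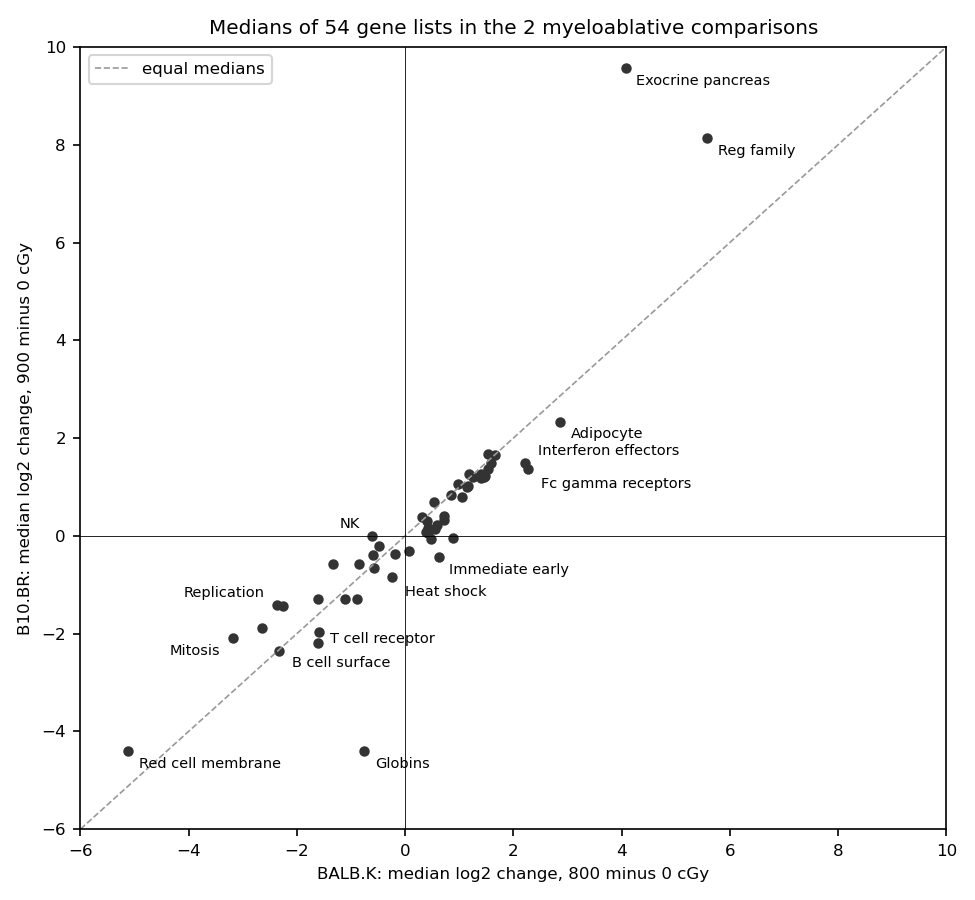
Median log2 change of each of 54 gene lists in BALB.K at 800 against 0 cGy (horizontal) and in B10.BR at 900 against 0 cGy (vertical); the dashed line marks equal medians. Most lists lie near that line; globins lie below it (-0.75 in BALB.K, -4.40 in B10.BR) and the exocrine pancreas list above it (4.08 and 9.56).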

How the data were processed

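Each of the 24 arrays is a one-colour (Cy3) mouse array. Per the file headers, the authors extracted the spot intensity with Agilent Feature Extraction (10.5.1.1 in the submitters' processing notes), which subtracts the background and detrends each array but does not scale arrays to each other. The authors' deposited matrix holds log2 values of the same arrays; its BALB.K columns correlated at 1 with the scanner values after per-probe centring and have a median of 0 over those arrays for every probe, so only differences can be read from it.

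Here log2 of the processed intensity minus each array's 75th percentile was used, spots that the extraction marked as outliers were dropped, and spots of 1 probe were averaged. A probe was kept where it was well above background on all 3 arrays of at least 1 group (42319 of 55681), and a gene was read from its probe with the highest mean, which gave 29532 features; 19826 carry a RefSeq symbol and the others keep the file's name. One limma model (limma 3.58.1, R 4.3.3) with a mean for each of the 8 groups was fitted to all 24 arrays, and the number of arrays limits its precision. No spot was saturated. A bound of "at least" sets the brighter group's mean against the mean of, per array, the higher of the lowest signal well above background and the dim probe's own. The programs were tested on simulated data.

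The comparison, the gene lists and their members were chosen with earlier results of these data known. Named are the 15 called features with the largest rise and fall (with a RefSeq symbol, above background on 3 arrays of a group and not overlapping), the key genes of each list with up to 4 called members in each direction, the 8 largest of the other contrasts in each direction and the 10 brightest that crossed the detection limit in each direction. From these the text takes a selection, and some genes are not reported here. Alternatives varied the scaling, the background correction, the filter, the probes, the arrays fitted, the moderation, slide and replicate number as blocks, the exocrine share as a covariate, the arrays with Y-linked signal and single arrays. Arrays of 1 group are separate pools of mice.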

Additional observations from a re-analysis of the deposited data

Results flagged for a closer look

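The change at the myeloablative dose differed between BALB.K (800 against 0 cGy) and B10.BR (900 against 0 cGy) for 3759 features, and 24 genes are given here because they were the largest such differences or belonged to the largest changes in BALB.K. Each value in brackets is the BALB.K change minus the B10.BR change on the log2 scale, tested by the interaction contrast of the limma fit, with 3 arrays in each of 4 groups. Where a probe was well above background on no array of a group, the fitted values that use that group are no measured sizes, and the group is named beside them. With slide as a block 8 of the 24 passed, with slide as a random block 20, and on the BALB.K arrays with Y-linked signal 17.

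Changes that were higher in BALB.K were led by Hspa1a, the inducible HSP70 (4.56 and -0.08 in BALB.K and B10.BR, 4.64), and the interferon-induced Ifi44l (3.28 and -0.96, 4.25; under background in both B10.BR groups). The blood group genes Kel (-6.14 and -10.34, 4.20) and Rhd (-7.19 and -10.76, 3.57) fell in both strains, by fitted values less in BALB.K, with both under background in B10.BR at 900 cGy, and the beta globin gene Hbb-bt gave -0.62 and -4.44 (3.83). The amino acid transporter gene Slc6a19 (-0.34 and -4.52, 4.18; under background in all of these groups except B10.BR at 0 cGy), the osteocalcin gene Bglap2 (2.34 and -1.67, 4.0) and the AMP deaminase gene Ampd1 (1.81 and -2.10, 3.91) followed. Fos gave 2.90 and -1.05 (3.95) and the monocyte attractant Ccl7 4.51 and 1.48 (3.03; under background in BALB.K at 0 cGy). Matn1, a cartilage matrix gene, rose in both (6.12 and 5.37, 0.753), and with the dim corner left out its difference was 0.547 and did not pass (adjusted p = 0.113).

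Changes that were lower in BALB.K included genes of red cell precursors that fell in both strains: Ermap (-7.03 and -5.89, -1.14), Tfr2 (-6.32 and -4.96, -1.36), Tlcd4 (-6.56 and -4.66, -1.90) and the metal transporter gene Slc30a10 (-6.35 and -5.04, -1.32; under background in both irradiated groups, so that the sizes cannot be ordered). Nxpe2 gave -7.13 and -3.77 (-3.36), the claudin gene Cldn20 -3.85 and -0.01 (-3.84), Tdrd5, of the germ line, -3.48 and 0.84 (-4.32) and Slc9c1, a sperm sodium/proton exchanger, -4.76 and 0.00 (-4.77); Tdrd5 and Slc9c1 were under background in every one of these groups except BALB.K at 0 cGy. Jhy had the largest difference of the 24, with -5.02 and 0.85 (-5.87, adjusted p = 8.71e-08). Gadl1 (-1.16 and 2.87, -4.04), the cytochrome P450 gene Cyp3a11 (-0.46 and 3.89, -4.36) and Ceacam15 (-1.49 and 3.62, -5.11) were higher after irradiation in B10.BR, where all 3 were under background at 0 cGy; Gadl1 was so in both BALB.K groups too, and Ceacam15 in BALB.K at 800 cGy. 2210010C04Rik, a trypsinogen-like gene, gave 0.55 and 6.16 (-5.60, adjusted p = 0.0447); its call was lost with slide as a block (2.17) and in each fit without a single array except the one without BALB.K 800 cGy replicate 2, and the exocrine share of the signal varied between arrays as given above. Leaving out single arrays also ended the call of Matn1 in 9 of 12 cases and of Ermap in 5 of 12.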

How the results depend on the processing

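The count of features that differed between 800 and 0 cGy stayed within 1.5 times 17248 under each alternative run, from 13447 with slide as a block to 17475 with the dim corner left out, an alternative chosen after seeing the data; without single arrays it ran from 15718 to 17050. The split depends on the scaling: 50.1% of the calls were higher at 800 cGy, 76.6% with spike-in scaling and 40.3% after normexp. For 800 against 400 cGy the count of 5498 became 3172 with spike-in scaling (90.2% higher, against 46.5%; 35.8% with median scaling), 1917 on arrays with Y-linked signal and 3175 to 4790 without single arrays. For the difference between the strains the count of 3759 became 620 with spike-in scaling, 408 with slide as a block, 1494 with slide as a random block (correlation 0.140) and 2573 to 4796 without single arrays. Replicate numbers were not found to pair the arrays, since the deviations of same-numbered arrays at 0 and 800 cGy correlated at 0.083, 0.054 and 0.012; with the replicate block the counts were 17472, 6310 and 4439.

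Of 252 named genes 209 kept direction and call for 800 against 0 cGy under every alternative run. Calls were lost for 17 of them with spike-in scaling, for 12 with slide as a block and for 10 on arrays with Y-linked signal; without single arrays at most 4 were. The direction turned for Bcl2 (0.084 with spike-in scaling, 0.12 with slide as a block), Ifng (0.054 with spike-in scaling), Timd4 (-0.13 with slide as a block), S100a8 (-0.041 with median scaling, -0.41 and -0.047 with slide as a block and as a random block, -0.065 without 0 cGy replicate 1, -0.19 without 800 cGy replicate 2) and Xrcc6 (-1.28 without the dim corner, -1.28 to 1.13 without single arrays, -1.14 on arrays with Y-linked signal). Among list medians it turned for regulatory T cells (-0.038 with quantile, -0.018 with median scaling, -0.054 after normexp, -0.15 with the exocrine covariate, -0.056 on arrays with Y-linked signal), dendritic cells (0.16 with spike-in scaling, 0.021 over all probes of a gene, 0.23 on arrays with Y-linked signal, -0.26 to 0.0089 without single arrays), heat shock (0.17 with quantile, 0.11 with spike-in scaling, 0.22 over all probes) and exocrine pancreas (-0.41 with the covariate). The covariate is computed from the exocrine pancreas genes themselves, so that list's turn follows from the adjustment. The causes of the other shifts were not tested. Probes near background have only bounds.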
